A study of Mus musculus with 7 samples.

Results

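The genes described here encode the 4 classical systems of axon guidance ligands and receptors, namely ephrins with Eph receptors, semaphorins with plexins and neuropilins, Slits with Robos, and netrins with Dcc and the Unc5 receptors. They were chosen by gene symbol alone, as every entry named for an EphA or EphB receptor, an ephrin, a semaphorin of classes 3 to 7, a plexin, a Slit, a Robo, a neuropilin, Dcc, an Unc5 receptor or a netrin from Ntn1 to Ntn4. This gave 68 of the 19257 named genes in the table. Their RNA was compared between endpoint brain tumors of a mouse glioma model with GPC6 overexpression (GPC6, n = 4) and without it (3xCR, n = 3), which addresses the question of how the tumor brain differs when its tumor cells carry extra GPC6, a glypican of the cell surface.

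Both groups share the same tumor model. Plasmids were electroporated in utero into progenitors lining the lateral ventricles, and they carried Cas9 with guides against 3 tumor suppressor genes (hence 3xCR), Trp53 and Nf1 among them, together with a piggyBac GFP reporter, so that the control genotype of the labels also has all 3 of these genes targeted. The GPC6 tumors received in addition a piggyBac transgene for GPC6. The mice were of CD-1 and C57BL/6 background and of both sexes, with neither sex nor exact age given for single libraries. Each library was made from the tumor tissue of a single brain, dissected at endpoint under fluorescence, and therefore mixes tumor cells with the host's neurons, glia, vessels and immune cells.

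Axon guidance cues are surface-bound or secreted proteins that attract or repel growing axons and migrating cells. Eph receptors are tyrosine kinases that bind ephrins on neighboring cells, and ephrins can signal back into the cell that carries them. Semaphorins act through plexins, and most of the secreted class 3 need neuropilins as co-receptors, whereas Slits repel through Robos, and netrins attract through Dcc and repel through Unc5 receptors. In the adult brain the same genes are used by neurons, oligodendrocyte precursors, endothelium and glioma cells.

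The libraries held 7197692 to 18879762 reads on named genes, lowest in GPC6 replicate 1 and highest in 3xCR replicate 2, and a count of 0 allows up to 1.64 to 4.64 normalized counts depending on the library. All values below are normalized counts, that is, reads divided by a size factor for each library, and those of 3xCR are given in the order of replicates 2, 3 and 4 and those of GPC6 in the order of replicates 1 to 4. Gpc6 itself, the check on the labels, was at 216.5, 226.0 and 125.7 in 3xCR and at 675.4, 262.8, 3434 and 5084 in GPC6. The groups did not overlap (log2 difference 2.85; two-sided exact permutation test, p = 0.0571, which is the lowest value possible with 3 against 4 libraries). GPC6 replicate 2 was close to the 3xCR range.

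No axon guidance gene passed the test between GPC6 and 3xCR tumors after correction over the table. Of the 68 genes, 67 had a mean of at least 10 normalized counts and were tested (Epha1, at 1.03 to 10.2 per library, did not reach it), and limma gave 0 of 67 at an adjusted p under 0.05, against 0% of the 14782 genes tested, with a smallest adjusted p of 0.730. At an unadjusted p under 0.05, limma gave 7 of 67 genes (10.4%), against 4.66% of all genes tested. Of these, 6 (8.96%) were higher in GPC6, namely Epha5, Epha6, Ephb6, Efna3, Sema6c and Plxna2, against 2.74% of all genes, and 1 (1.49%) was lower, Sema3b, against 1.92%. Those 7 genes are singled out at an unadjusted threshold and each has an adjusted p of 0.730, so none of them is called different. Leaving out 1 library moved the count of 7, and the share of all genes with it. Without 3xCR replicates 2, 3 and 4 in turn there were 9 (13.4%, against 7.67% of all genes), 1 (1.49%, against 2.55%) and 2 (2.99%, against 0.819%). Without GPC6 replicates 1 to 4 in turn there were 3 (4.48%, against 3.17%), 15 (22.4%, against 9.46%), 3 (4.48%, against 2.60%) and 10 (14.9%, against 7.84%). Weighting the libraries by their estimated quality gave 17 of 67 genes at an adjusted p under 0.05, against 13.3% of all genes.

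The groups failed to overlap for 2 of the 67 genes. Efnb1 was higher in every GPC6 library than in any 3xCR library (1.49% of the genes, against 2.80% of all genes), and Sema3b was lower in every GPC6 library (1.49%, against 3.52%). Both shares were below those of the table as a whole. With fewer libraries groups fail to overlap more often in the whole table. Without 3xCR replicates 2, 3 and 4 in turn there were 16 such guidance genes in either direction (23.9%, against 20.9% of all genes), 2 (2.99%, against 10.9%) and 6 (8.96%, against 7.92%). Without GPC6 replicates 1 to 4 in turn there were 3 (4.48%, against 9.03%), 14 (20.9%, against 16.1%), 4 (5.97%, against 9.14%) and 6 (8.96%, against 14.4%).

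**Figure D1:**
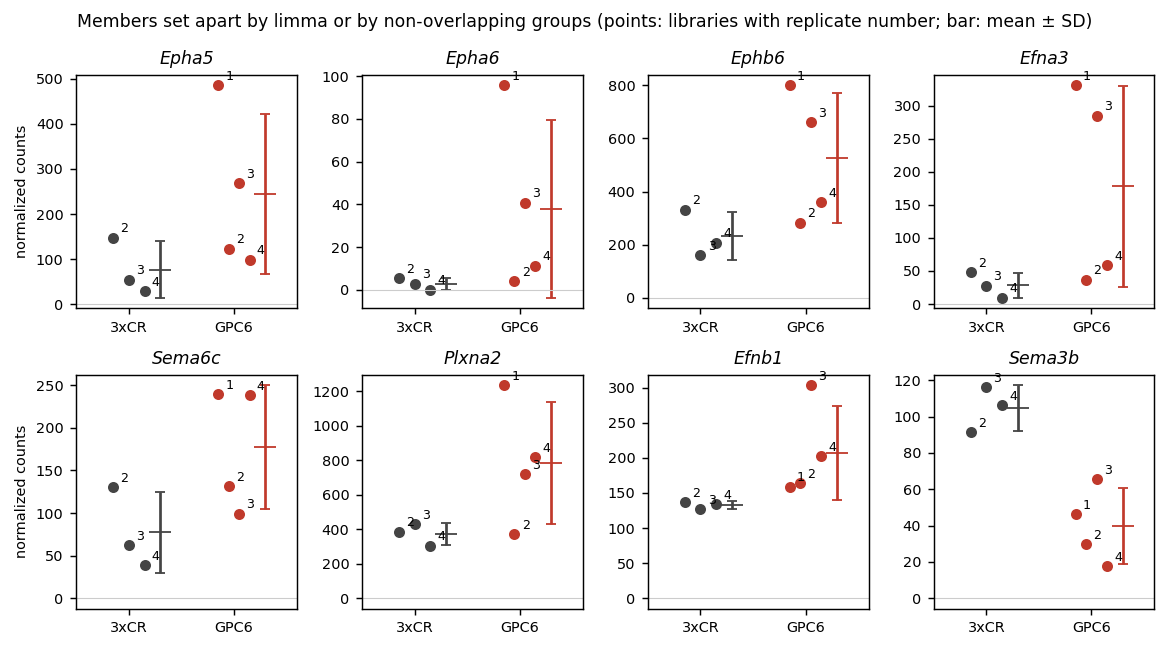
Normalized counts (vertical axes, linear, each on its own scale) of the 8 genes set apart by limma at an unadjusted p under 0.05 or by groups that do not overlap. Points are libraries with their replicate number and bars show the mean ± SD (3xCR n = 3, GPC6 n = 4); in 6 of the 7 panels with a higher GPC6 mean, all but Efnb1, GPC6 replicate 1 is the highest point.

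The table can also be read through count models fitted to the reads, which could be recovered exactly from the normalized values. DESeq2 gave 15 of 66 genes (22.7%) at an unadjusted p under 0.05, against 9.77% of all genes. Of these 14 (21.2%) were higher in GPC6, against 6.81% of all genes, and 0 of 66 had an adjusted p under 0.05, against 0.0211%. With the thresholds of the study's methods (a fold change above 1.5 and p under 0.01) it gave 4 of 66 genes (6.06%), namely Efna3, Epha6, Unc5a and Sema3b, against 2.85% of all genes. DESeq2 returned no p for Plxnb3 and Slit2. The quasi-likelihood test of edgeR gave 7 of 67 genes (10.4%) at an unadjusted p under 0.05, against 6.70% of all genes, and 0 at an adjusted p under 0.05, against 0%. Of its 7 genes, 5 (Epha6, Ephb6, Efna3, Plxna2 and Sema3b) were also among the 7 of limma, and Slit1 and Unc5a took the place of Epha5 and Sema6c.

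Over all 67 genes the median log2 difference was 0.37, and 42 (62.7%) were higher in GPC6 on the log2 scale, against a median of -0.02 and 48.3% over all genes tested. By family, the median was 1.45 for the EphA receptors (6 of 8 higher), 0.18 for the EphB receptors (4 of 5), 0.20 for the ephrin-A ligands (3 of 5) and 0.50 for the ephrin-B ligands (3 of 3). It was -0.15 for the class 3 semaphorins (2 of 7 higher), 0.14 for class 4 (3 of 6), 0.45 for classes 5 to 7 (5 of 7), 0.37 for the plexins (6 of 9) and -0.18 for the neuropilins (0 of 2). It was 0.60 for the Slits (2 of 3), 0.64 for the Robos (4 of 4), -0.05 for the netrins (0 of 3) and 0.88 for Dcc and the Unc5 receptors (4 of 5). Genes of a family share libraries and are not independent of each other, so no test was made of these medians.

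**Figure D2:**
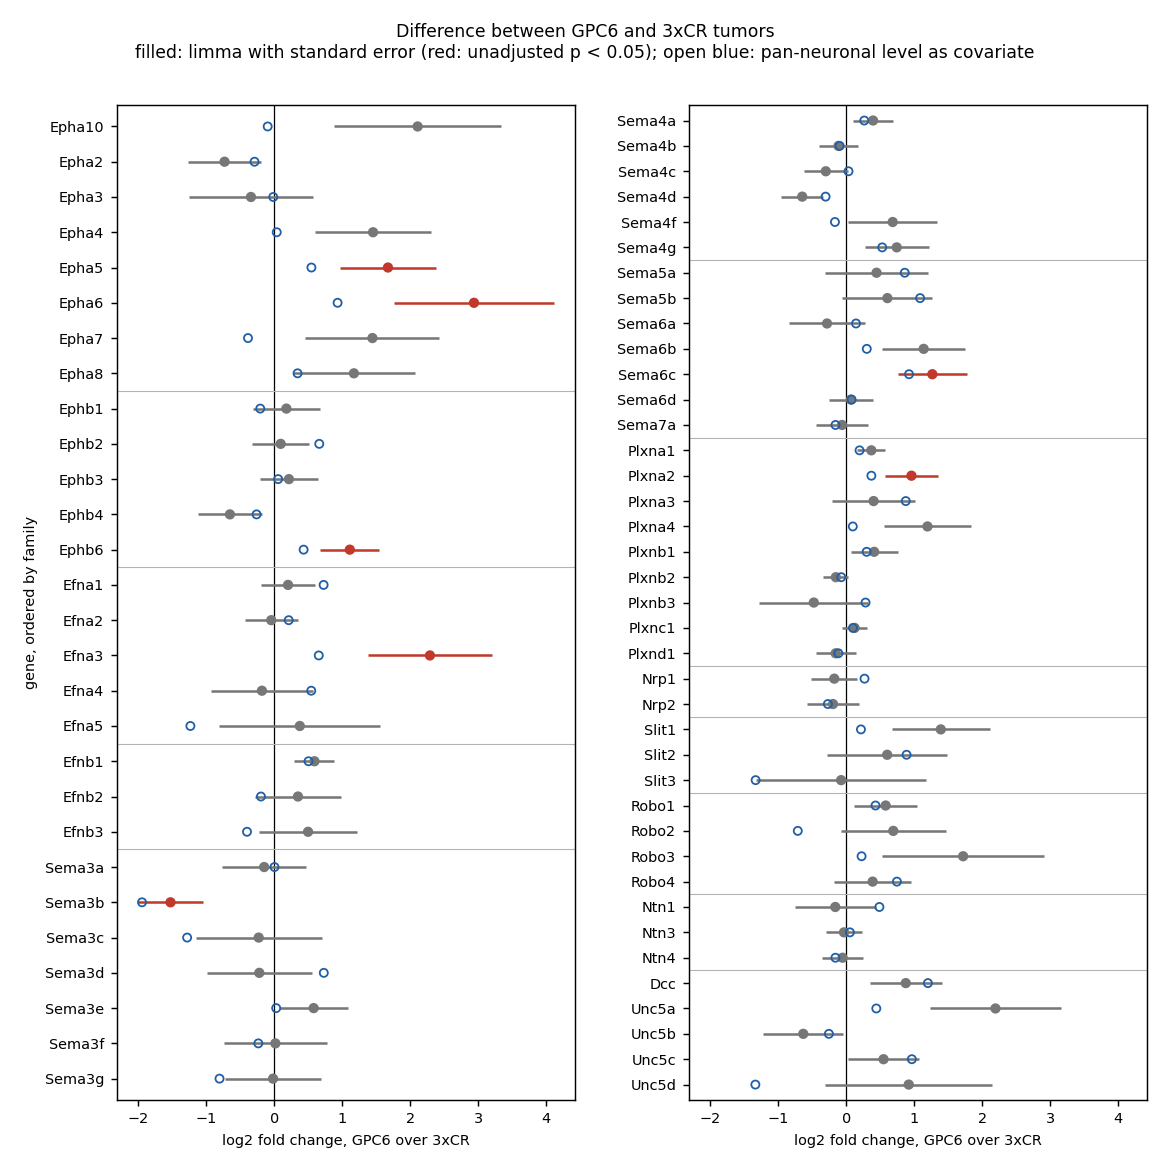
Log2 difference between GPC6 and 3xCR tumors for the 67 genes tested (horizontal axis), by family. Filled points and bars are the limma estimate ± standard error (red at an unadjusted p under 0.05), and open blue points are the estimate with the pan-neuronal level of each library as a covariate; in the EphA receptors the median moves from 1.45 to 0.01 between the 2 kinds of point.

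The highest values were spread unevenly over the libraries. GPC6 replicate 1 held the highest value of 26 of the 67 genes (38.8%, against 31.3% of all genes tested), and GPC6 replicate 2 that of 15 (22.4%, against 12.2%). 3xCR replicate 4 was highest for 12 genes (17.9%, against 23.9%), GPC6 replicate 4 for 7 (10.4%, against 18.4%), GPC6 replicate 3 for 4, 3xCR replicate 2 for 2 and 3xCR replicate 3 for 1. In 18 genes (26.9%, against 16.9% of all genes) GPC6 replicates 1 and 3 were the 2 highest libraries, and among them were 5 EphA receptors (Epha4, Epha5, Epha6, Epha7 and Epha10), Ephb6, Efna3, Efna5, Slit1, Robo2, Unc5a, Unc5d and Plxna4. The spread between tumors was wide. The highest library exceeded the lowest by a median of 5.02-fold over the 65 genes with a read in every library, against 2.81-fold over all such genes, from 1.27-fold for Plxnc1 to 80.6-fold for Epha10.

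**Figure D3:**
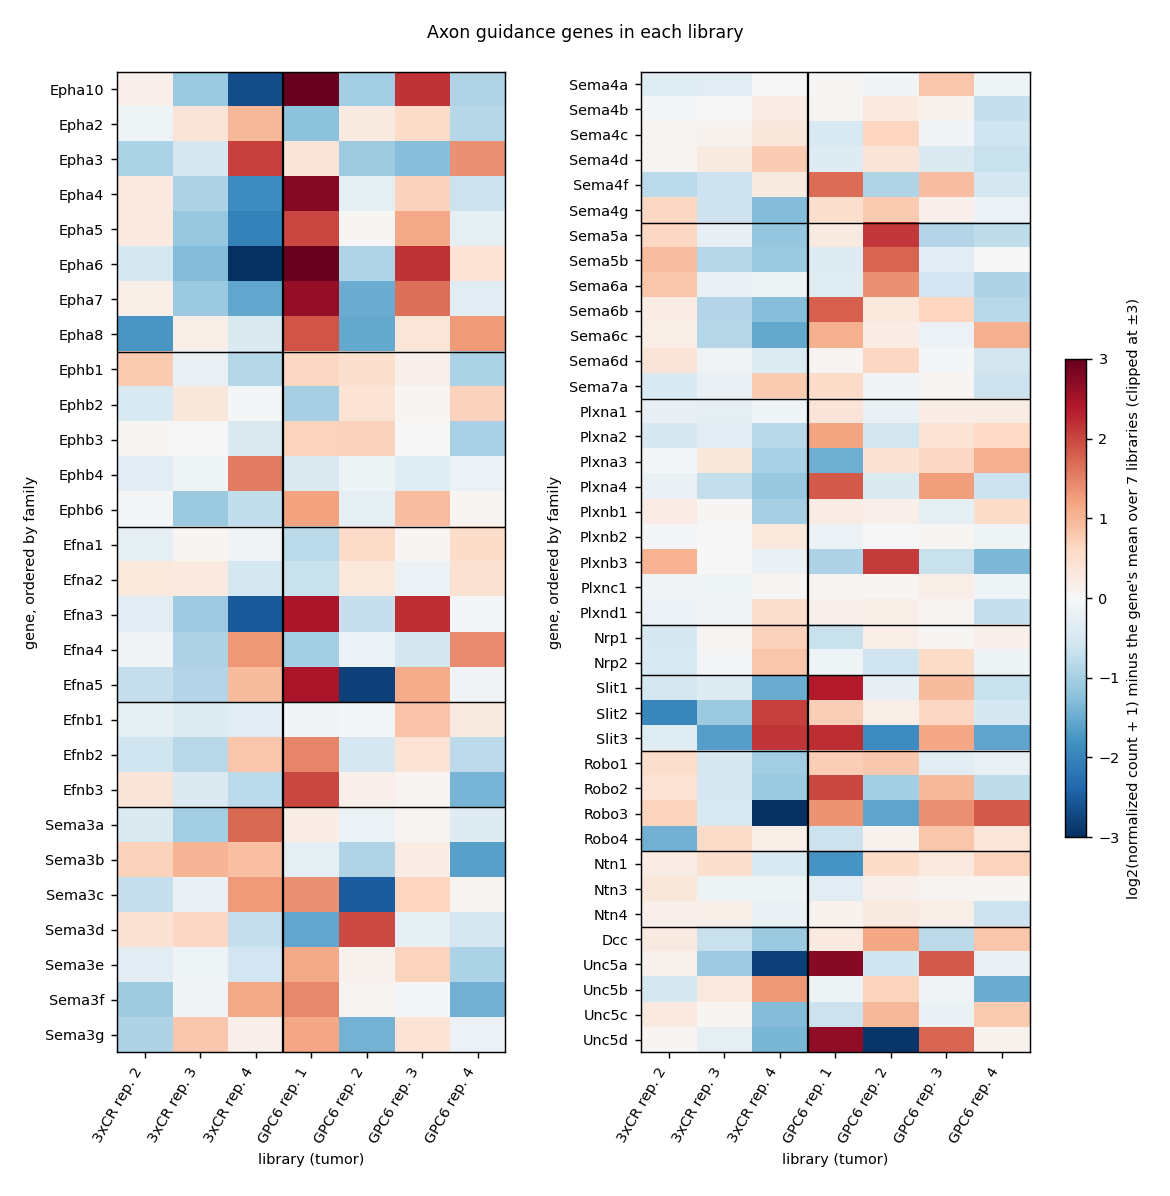
Level of each of the 67 tested axon guidance genes in each library, as log2(normalized count + 1) minus the mean of the gene over the 7 libraries, with genes in rows by family and libraries in columns (the color is clipped at 3 in either direction). Red for several EphA receptors, Efna3, Unc5a and Unc5d is concentrated in GPC6 replicates 1 and 3, and red for Sema5a, Sema5b and Plxnb3 in GPC6 replicate 2.

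Neuronal genes were highest in the same pair of libraries, GPC6 replicates 1 and 3. The summed level of 14 pan-neuronal genes such as Snap25, Syt1 and Tubb3 was 14744, 11406 and 8794 in 3xCR and 76797, 10533, 42806 and 16648 in GPC6, and all 14 genes were higher in GPC6 on the log2 scale. Excitatory neuron genes (6) summed to 63.5 to 1321.5 in 3xCR and 72.1 to 11773 in GPC6, and inhibitory neuron genes (7) to 291 to 1625 and 1046 to 12428.5. Hypothalamic neuropeptide genes (5) reached 1011 in GPC6 replicate 1 and 12.1 to 27.5 elsewhere, and proliferation genes (8) were at 530.2 there and between 4318 and 11809 elsewhere. When the pan-neuronal level of each library was added to the limma model as a covariate, the median log2 difference of the 67 genes became 0.10 (0.01 over all genes) and that of the EphA receptors 0.01, and 2 of the 67 genes, Sema3b and Unc5d, stood at an unadjusted p under 0.05, against 1.98% of all genes. With 7 libraries and the covariate highest in 2 GPC6 tumors, the group and the neuronal content can be separated only in part.

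The labels name the tissue as brain and the cell type as neural, and genes of neurons, astrocytes and the oligodendrocyte lineage were present in all 7 libraries. The other lists set 2 further libraries apart. Oligodendrocyte precursor genes (7) summed to 19517 to 62839 in 3xCR and 18647 to 88156 in GPC6 and were highest in GPC6 replicate 2, as were oligodendrocyte genes (10; 67024 to 84250 in 3xCR, 15919 to 113982 in GPC6). Fibroblast genes (6) stood at 47027 in 3xCR replicate 4 and at 413 to 3966 in the other libraries, macrophage genes (7) at 32433 there and 627.5 to 11210.5 elsewhere, T cell genes (7) at 1838 there and 334 to 506 elsewhere, and mural cell genes (8) at 3989 there and 1324 to 2236 elsewhere. Microglia genes (8) summed to 11896 to 16027 in 3xCR and 7881 to 10875 in GPC6 without overlap. The sums were 13799 to 56721 and 22954 to 61948 for astrocytes (8 genes), 773 to 2098 and 1467 to 2124.5 for endothelium (8), 223 to 386 and 85.0 to 658 for ependyma (5), 208 to 3752 and 64.8 to 12594 for choroid plexus (7), and 3.3 to 40 and 3.5 to 13.9 for the erythroid gene Alas2. In bulk tissue fewer cells of a type and less RNA per cell cannot be told apart, and beyond the neuronal covariate the part of these lists in the values below was not tested.

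**Figure D4:**
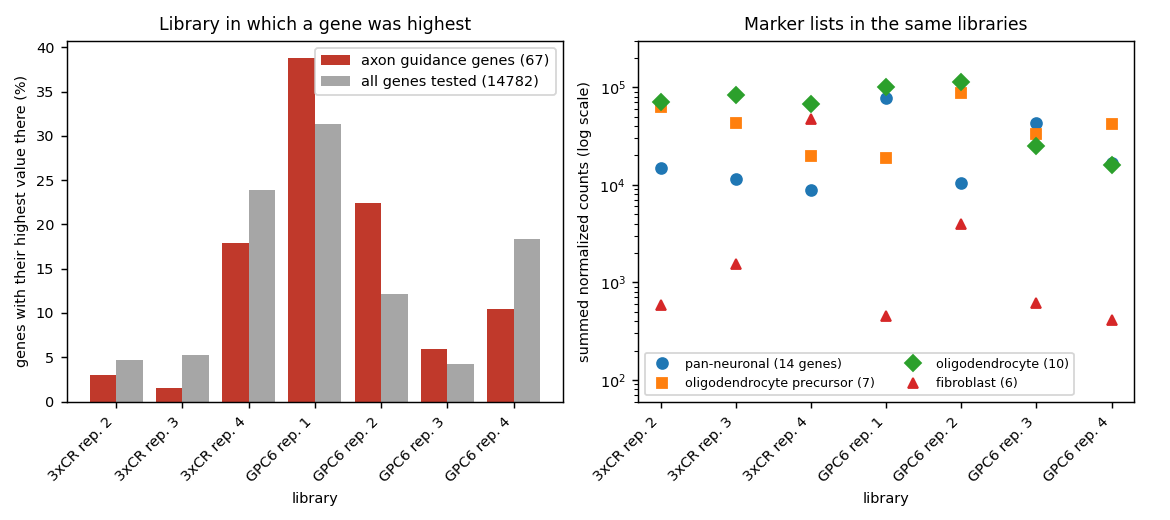
Left, percentage of the 67 axon guidance genes (red) and of the 14782 genes tested (gray) that had their highest value in each library. Right, summed normalized counts of 4 marker lists in the same libraries on a log axis; the pan-neuronal sum is highest in GPC6 replicates 1 (76797) and 3 (42806), the precursor sum in GPC6 replicate 2 (88156) and the fibroblast sum in 3xCR replicate 4 (47027).

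Per kilobase of annotated exon (GENCODE), the 5 most abundant guidance genes of 3xCR were also among the 6 most abundant of GPC6. Sema7a, a membrane-anchored semaphorin, stood at 298 normalized counts per kb in 3xCR and 278 in GPC6, Ntn1 at 252 and 259, Plxnb2 at 228 and 205, Plxnb3 at 172 and 194, and Plxnb1 at 151 and 192. Efnb3, highest of the ephrins, was at 124 and 235. At the other end Epha1 was at 1.76 and 0.87, Robo3 at 0.91 and 2.80, and Epha6 at 0.52 and 7.18 counts per kb.

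**Figure D5:**
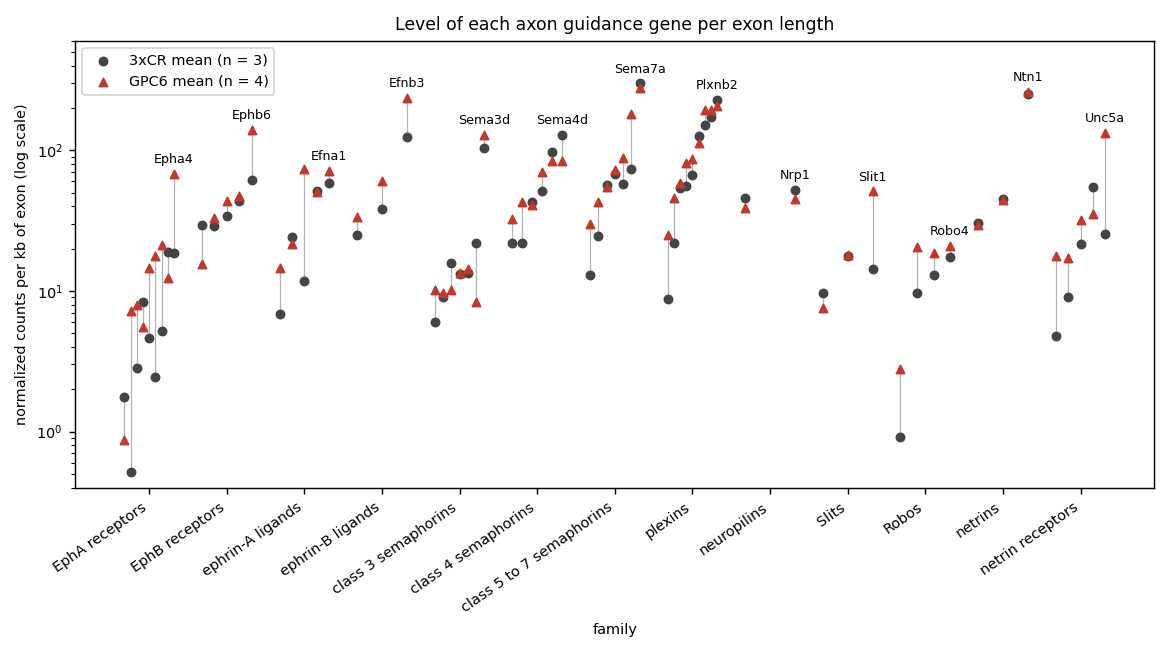
Mean level of each of the 68 axon guidance genes by family, in normalized counts per kb of annotated exon on a log axis (circles 3xCR, n = 3; triangles GPC6, n = 4; lines join the means of a gene), with the gene named that is highest in each family in the mean of all 7 libraries. Sema7a, Ntn1, Plxnb1, Plxnb2 and Plxnb3 lie near the top in both groups, and the longest lines belong to EphA receptors, Efna3, Unc5a and other genes whose level is low in 3xCR.

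The EphA receptors, which bind the membrane-anchored ephrin-A ligands, held the largest log2 difference of all families. Epha6, a receptor of the neuronal EphA group, was at 5.48, 2.79 and 0 in 3xCR and 95.8, 3.95, 40.8 and 11.3 in GPC6. The groups overlapped, because GPC6 replicate 2 lay below 3xCR replicate 2, and 3xCR replicate 4 had no read at all, so the log2 difference of 2.94 (SE 1.17, limma, unadjusted p = 0.0373, adjusted p = 0.730) rests on few reads in 3xCR. Epha5, a receptor for ephrin-A ligands in axon mapping, was at 148, 54.9 and 29.0 in 3xCR and 485, 124, 269 and 98.8 in GPC6. Here 3xCR replicate 2 exceeded GPC6 replicates 2 and 4, and the log2 difference was 1.67 (SE 0.71, limma, unadjusted p = 0.0462, adjusted p = 0.730). With the pan-neuronal covariate the differences became 0.93 for Epha6 and 0.55 for Epha5.

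Epha4, which binds ephrins of both subclasses and had the highest count of the family in both groups, was at 274, 117 and 59.4 in 3xCR and 1493, 182, 357 and 141 in GPC6, with GPC6 replicate 1 far above the rest and the groups overlapping. Epha2, found on epithelia, vessels and glioma cells, had the lowest log2 difference of the family (-0.73, SE 0.54), with 57.0, 81.9 and 127 in 3xCR and 26.3, 76.1, 93.1 and 34.0 in GPC6, highest in 3xCR replicate 4 and lowest in GPC6 replicate 1. Epha7, Epha10 and Epha8 had log2 differences of 1.45, 2.11 and 1.17, each highest in GPC6 replicate 1, and Epha3 of -0.34. Under DESeq2, which also tested Epha1, 5 of the 9 EphA receptors (Epha4, Epha5, Epha6, Epha7 and Epha10) stood at an unadjusted p under 0.05, against 9.77% of all genes, and none at an adjusted p under 0.05. With the pan-neuronal covariate the log2 differences of Epha4, Epha7 and Epha10 were 0.04, -0.39 and -0.10.

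Among the EphB receptors, which bind the transmembrane ephrin-B ligands, Ephb6, a member without kinase activity, had the highest level per kb in both groups and the largest log2 difference. In counts it led in GPC6 (526 on average) but not in 3xCR (233, against 364 for Ephb2). Ephb6 was at 332, 160.0 and 207 in 3xCR and 801, 284, 662 and 359 in GPC6, with 3xCR replicate 2 above GPC6 replicate 2 and GPC6 replicates 1 and 3 above all others. The log2 difference was 1.11 (SE 0.43, limma, unadjusted p = 0.0332, adjusted p = 0.730) and 0.43 with the pan-neuronal covariate. Ephb4, the venous endothelial receptor for Efnb2, had the lowest difference (-0.65, SE 0.48), with 70.7, 80.0 and 259.7 in 3xCR and 64.9, 79.0, 68.3 and 77.2 in GPC6. It was high in 3xCR replicate 4 alone, and in the other 6 libraries it lay between 64.9 and 80.0. Ephb1, Ephb2 and Ephb3 had log2 differences between 0.10 and 0.22, smaller than their standard errors.

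Among the ephrin-A ligands Efna3 differed most. It was at 47.7, 27.9 and 9.67 in 3xCR and 331, 36.6, 285 and 58.6 in GPC6, so that GPC6 replicates 1 and 3 stood well above every other library while GPC6 replicate 2 lay within the 3xCR range. The log2 difference was 2.29 (SE 0.91, limma, unadjusted p = 0.0363, adjusted p = 0.730), and 0.66 with the pan-neuronal covariate. Efna3 lies on chromosome 3 (mm10, 89313899 to 89322965, minus strand) between Efna1 (89271733 to 89281142) and Efna4 (89333390 to 89338028), and 14.1% of its exon length overlaps another annotated gene. Its neighbors had other highest libraries. Efna1, which had the highest count of the family in the mean of all 7 libraries but in neither group alone, was at 93.2, 120.0 and 106 in 3xCR and 64.9, 173, 118 and 168 in GPC6, lowest in GPC6 replicate 1, and Efna4 was at 27.4, 14.9 and 73.2 in 3xCR and 13.9, 25.7, 19.5 and 79.2 in GPC6, with a log2 difference smaller than its standard error for both. Efna5 ranged from 2.96 to 149.9 within GPC6 alone, and Efna2 from 64.9 to 142.0.

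The ephrin-B ligands were all higher in GPC6 on the log2 scale, by less than the standard error for Efnb2 and Efnb3. Efnb1 was the only one of the 67 genes higher in all GPC6 libraries than in all 3xCR libraries, at 137, 127 and 134 in 3xCR and 159, 164, 303 and 203 in GPC6. Its 3xCR values lay within a narrow range, and the log2 difference was 0.59 (SE 0.29, limma, unadjusted p = 0.0793, adjusted p = 0.730) and 0.51 with the pan-neuronal covariate. Efnb3, a neuronal ephrin with the highest level per kb, was at 591, 337 and 259.7 in 3xCR and 1832, 504, 481 and 173 in GPC6, with the highest and the lowest library of all 7 both in the GPC6 group. Efnb2, the arterial ephrin, was at 112, 94.9 and 307 in 3xCR and 476, 121, 227 and 98.8 in GPC6, high in GPC6 replicate 1 and 3xCR replicate 4.

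The sequences upstream of the genes that stood out in the ephrin and Eph families are shown for the 4 at an unadjusted p under 0.05, which had GPC6 replicates 1 and 3 as their highest libraries, and for Efnb1, whose groups did not overlap. They are the bases next to the RefSeq start of transcription (GRCm38.p6, gene strand, 5′ to 3′, up to 200 bases, shortened where the annotated gene begins further upstream), with each GC box (GGGCGG, or CCGCCC for the other strand), the letters bound by Sp-family factors, in capitals. Efna3 holds 2 of them and 18 CpG in 174 bases, Epha5 2 and 16 in 200 bases, Epha6 2 and 13 in 200 bases, and Ephb6 3 and 19 in 171 bases. Efnb1 holds 0 and 11 in 200 bases. Its window ends at 99136060, short of the annotated gene start at 99136130, and leaves out the bases between. The windows of the other 4 genes adjoin the annotated gene, so the counts are not fully comparable.
Efna3, chr3:89322966-89323139, minus strand: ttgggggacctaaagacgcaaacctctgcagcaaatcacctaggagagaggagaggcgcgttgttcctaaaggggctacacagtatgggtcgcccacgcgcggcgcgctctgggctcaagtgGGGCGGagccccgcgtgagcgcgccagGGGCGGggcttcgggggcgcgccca
Epha5, chr5:84417383-84417582, minus strand: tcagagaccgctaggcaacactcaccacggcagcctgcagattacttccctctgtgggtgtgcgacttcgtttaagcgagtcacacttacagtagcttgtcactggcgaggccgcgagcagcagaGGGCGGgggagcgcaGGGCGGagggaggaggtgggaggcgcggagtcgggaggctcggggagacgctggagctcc
Epha6, chr16:60605532-60605731, minus strand: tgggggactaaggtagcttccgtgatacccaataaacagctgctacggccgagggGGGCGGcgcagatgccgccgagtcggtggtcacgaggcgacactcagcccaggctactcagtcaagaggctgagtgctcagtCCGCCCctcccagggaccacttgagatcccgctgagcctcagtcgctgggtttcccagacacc
Ephb6, chr6:41605311-41605481, plus strand: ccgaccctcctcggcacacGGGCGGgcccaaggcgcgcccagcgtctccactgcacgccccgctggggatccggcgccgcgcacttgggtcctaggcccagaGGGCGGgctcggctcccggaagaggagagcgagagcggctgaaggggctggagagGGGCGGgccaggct
Efnb1, chrX:99135861-99136060, plus strand: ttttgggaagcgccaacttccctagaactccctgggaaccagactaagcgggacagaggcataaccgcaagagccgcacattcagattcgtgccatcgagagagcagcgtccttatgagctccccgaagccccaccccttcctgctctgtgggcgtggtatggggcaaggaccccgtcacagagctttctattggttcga

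RefSeq starts were found for 58 of the 68 genes, with 73 windows of 200 bases. A GC box on either strand was present in 71.2% of these windows, against 53.4% of the 14303 windows of all tested genes and 31.0% of all 32851 windows in the reference. On either strand, CCAAT was present in 23.3% (31.1% and 29.3%) and TATAAA in 2.74% (4.94% and 9.96%). The left part of the RE1 element, TTCAGCACC, searched because REST binds RE1 in neuronal genes, was in 0 of 73 windows (0.238% of windows of tested genes and 0.237% of all). The median number of CpG per window was 13, as in all tested genes (13), and 5 in all windows. These matches describe letters in short windows and not binding.

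Sema3b is a secreted class 3 semaphorin that signals through neuropilins and plexins. It was the only guidance gene at an unadjusted p under 0.05 in each of the 20 alternative analyses, which reuse the same libraries. It was at 91.5, 116 and 106 in 3xCR and 46.4, 29.6, 65.6 and 17.5 in GPC6. All 4 GPC6 libraries lay below all 3 of 3xCR, with a mean ± SD of 105 ± 12.4 (n = 3) against 39.8 ± 20.9 (n = 4). The log2 difference was -1.52 (SE 0.48, limma, unadjusted p = 0.0136, adjusted p = 0.730), and -1.94 with the pan-neuronal covariate. It stayed between -1.81 and -1.20 when each library was left out in turn. Its adjusted p was under 0.05 in no analysis, the one with library weights included (limma, unadjusted p = 0.00819 there). Sema3b lies on chromosome 9 (mm10, 107597674 to 107609229), where its neighbor within the class, Sema3f (107681500 to 107710475), had a log2 difference of 0.02, smaller than its standard error.

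The other class 3 semaphorins had log2 differences between -0.23 and 0.58. Sema3d, with the highest level of the class, was at 1024, 1166 and 472 in 3xCR and 255, 2981, 626 and 532 in GPC6, and GPC6 replicate 2, which had the highest oligodendrocyte precursor sum, was above all others. Sema3e, a ligand that binds plexin D1 without a neuropilin, had the highest log2 difference of the class (0.58, SE 0.51), with 56.5, 64.2 and 47.0 in 3xCR and 155, 77.1, 112 and 36.0 in GPC6, where GPC6 replicate 4 was the lowest of all 7. Sema3a was at 108, 70.7 and 482 in 3xCR and 172, 128, 153 and 112 in GPC6, high in 3xCR replicate 4 alone. Sema3c and Sema3g had log2 differences of -0.23 and -0.02, smaller than their standard errors.

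Of the membrane-bound class 4, Sema4d, the plexin B1 ligand made by oligodendrocytes and lymphocytes, had the highest mean count of the class in both groups and the lowest log2 difference (-0.65, SE 0.31). It was at 787, 890.2 and 1267 in 3xCR and 564, 979, 547 and 468 in GPC6, and only GPC6 replicate 2 reached into the 3xCR range. Sema4g had the highest difference (0.74, SE 0.47), with 338, 142 and 88.4 in 3xCR and 315, 373, 243 and 191 in GPC6, but 3xCR replicate 2 was above 3 of the GPC6 libraries. The other 4 members had log2 differences between -0.30 and 0.68.

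In classes 5 to 7, Sema6c, a transmembrane semaphorin of the plexin A ligands, was at 130.4, 62.3 and 38.7 in 3xCR and 239.6, 131, 99.3 and 239 in GPC6. 3xCR replicate 2 lay above GPC6 replicate 3 and next to GPC6 replicate 2, and the log2 difference was 1.27 (SE 0.51, limma, unadjusted p = 0.0378, adjusted p = 0.730) and 0.92 with the pan-neuronal covariate. Sema6a, an oligodendrocyte-lineage semaphorin with the lowest difference of these classes, was at 755, 366 and 379.8 in 3xCR and 326, 1099, 283 and 223 in GPC6. Sema7a, with the highest level, was at 649.5, 766 and 1536 in 3xCR and 1320.0, 849.7, 928 and 567 in GPC6, and the difference of both genes was smaller than its standard error. Sema5a and Sema5b reached 2089.6 and 1403 in GPC6 replicate 2, against 215 to 747 and 192 to 797 in the other 6 libraries, and Sema6a was also highest there. Sema6b had a log2 difference of 1.14 and Sema6d of 0.07.

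Among the plexins, the semaphorin receptors, Plxna2, which binds Sema6a and the class 3 complexes, was at 385, 431 and 305 in 3xCR and 1235, 371, 719 and 817 in GPC6. GPC6 replicates 1, 3 and 4 lay above all 3xCR libraries and GPC6 replicate 2 below 2 of them, with a log2 difference of 0.96 (SE 0.39, limma, unadjusted p = 0.0400, adjusted p = 0.730) and 0.37 with the pan-neuronal covariate. Plxna4 had the highest difference of the family (1.20, SE 0.64), at 167, 115 and 87.0 in 3xCR and 689, 142, 460.4 and 123 in GPC6. For this gene only GPC6 replicates 1 and 3 lay above all 3xCR libraries. With the covariate it was at 0.10.

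Plxnb1, the Sema4d receptor, had the highest count of the plexins in GPC6 and in the mean of all 7 libraries, whereas Plxnb2 led in 3xCR (1764 against 1449.6). Plxnb1 was at 1906, 1648 and 794 in 3xCR and 1906, 1769, 1334 and 2357 in GPC6, lowest in 3xCR replicate 4. Plxnb3, a receptor for Sema5a in the oligodendrocyte lineage, was at 1763, 846 and 746 in 3xCR and 454, 3697, 542 and 336 in GPC6, so that GPC6 held both its highest and its lowest libraries and its log2 difference was negative (-0.48, within the standard error) while its arithmetic mean was higher in GPC6 (1257 against 1118). The steadiest guidance genes were also plexins. Plxnc1, the Sema7a receptor, ranged from 427.9 to 544 and Plxnb2 from 1458 to 2043 over the 7 libraries. Plxna1, Plxna3 and Plxnd1 had log2 differences of 0.37, 0.40 and -0.15.

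The neuropilins, co-receptors of class 3 semaphorins and of VEGF, overlapped between groups. Nrp2 was at 341, 458 and 836 in 3xCR and 431, 310.2, 684 and 422 in GPC6, and Nrp1 at 327, 481 and 727 in 3xCR and 284, 516, 460.4 and 504 in GPC6. Both were highest in 3xCR replicate 4, and both log2 differences (-0.19 and -0.18) were smaller than their standard errors.

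Of the Slits, secreted repellents, Slit1, the neuronal one, was at 97.0, 108 and 49.7 in 3xCR and 731, 118, 271 and 87.5 in GPC6, with GPC6 replicate 4 inside the 3xCR range. Its log2 difference was 1.39 (SE 0.72, limma, unadjusted p = 0.0905, adjusted p = 0.730) and 0.22 with the pan-neuronal covariate. Slit2 was at 38.4, 69.8 and 634 in 3xCR and 255, 176, 234 and 106 in GPC6, and Slit3 at 44.4, 17.7 and 261 in 3xCR and 270.5, 14.8, 129.5 and 18.5 in GPC6. In 3xCR both were high in replicate 4 alone, the library with the highest fibroblast, mural and macrophage sums. For Slit2 the log2 difference was positive (0.60, within its standard error) although the arithmetic mean was lower in GPC6 (193 against 247).

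The Robo receptors were all higher in GPC6 on the log2 scale, with the groups overlapping for each. Robo2, with the highest count in GPC6 and in the mean of all 7 libraries (in 3xCR Robo1 was higher, at 214 against 165), was at 265, 139.5 and 91.2 in 3xCR and 796, 96.8, 390.3 and 115 in GPC6, where GPC6 replicates 1 and 3 stood above all others. Its log2 difference was 0.69 and -0.71 with the pan-neuronal covariate. Robo3, which controls midline crossing, was close to the detection floor, at 13.2, 5.58 and 0 in 3xCR and 21.6, 1.98, 22.2 and 30.9 in GPC6, and had the largest difference of the family (1.72, SE 1.19). Robo4, an endothelial receptor, was at 33.4, 138 and 105 in 3xCR and 58.7, 99.8, 164 and 118 in GPC6, with a difference smaller than its standard error, and Robo1 had a log2 difference of 0.58.

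The netrins, secreted relatives of laminin, had small log2 differences. Ntn1 was at 1664, 2037 and 1044 in 3xCR and 419, 2098, 1741 and 2255 in GPC6, low in GPC6 replicate 1 alone. Ntn3 was at 193, 137 and 137 in 3xCR and 119, 169, 159.7 and 157 in GPC6, and Ntn4 ranged from 102.9 to 195.6 over the 7 libraries. All 3 log2 differences lay between -0.16 and -0.03 and were smaller than their standard errors, of 0.59 for Ntn1, 0.31 for Ntn4 and 0.27 for Ntn3.

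Among the netrin receptors, Unc5a, which mediates repulsion by netrin 1, was at 204, 87.4 and 26.2 in 3xCR and 1259.7, 124, 674 and 160.5 in GPC6. GPC6 replicates 1 and 3 were above every 3xCR library and GPC6 replicates 2 and 4 below 3xCR replicate 2, and the log2 difference was 2.20 (SE 0.97, limma, unadjusted p = 0.0535, adjusted p = 0.730) and 0.44 with the pan-neuronal covariate. Unc5b, the endothelial member, had the lowest difference (-0.63, SE 0.59), at 161, 287 and 580.1 in 3xCR and 210.2, 371, 216 and 82.3 in GPC6. Unc5c, with the highest mean count before length correction, was at 571, 485 and 188 in 3xCR and 295, 927, 405 and 805 in GPC6, and Dcc, the attractive netrin receptor, at 187, 97.7 and 71.8 in 3xCR and 190.1, 347, 90.5 and 278 in GPC6. Both were highest in GPC6 replicate 2 and had log2 differences of 0.55 and 0.88. Unc5d was at 61.9, 49.3 and 22.1 in 3xCR and 379, 6.92, 200.5 and 63.8 in GPC6, and its log2 difference went from 0.92 to -1.34 with the covariate (limma, unadjusted p = 0.0327, adjusted p = 1.000).

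Genes that act beside or below these receptors were counted from 2 lists, 40 further cues and receptors (such as Rgma, the Lingo and Nogo receptor genes and VEGF receptors) and 60 cytoplasmic effectors (collapsin response mediators, small GTPases and their regulators, kinases). Of the 100 genes, 99 were tested, and limma gave 8 (8.08%) at an unadjusted p under 0.05, against 4.66% of all genes, 7 of them higher in GPC6, with none called after adjustment. The count of 8 became 1 without 3xCR replicate 4 (1.01%, against 0.819% of all genes), 3 without 3xCR replicate 3 (3.03%, against 2.55%) and 16 without GPC6 replicate 2 (16.2%, against 9.46%). Among the cues these were Lingo1, a Nogo receptor partner, at 553, 330.2 and 188 in 3xCR and 2049.5, 480.2, 2302 and 855 in GPC6 (log2 difference 1.86), and Flt1, a VEGF receptor (0.92). Among the effectors they were Crmp1 and Dpysl4, collapsin response mediators (0.90 and 0.84), Cdk5, a neuronal kinase (0.48), Tiam1, a Rac activator (1.22), and Arhgap39, a GTPase-activating protein (0.71), all higher, and Rhod, a small GTPase, lower. Rhod was at 118, 76.3 and 137 in 3xCR and 23.2, 52.4, 51.5 and 26.8 in GPC6, without overlap (log2 difference -1.55, limma, unadjusted p = 0.00793, adjusted p = 0.730).

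Of the 60 effectors, 6 (Crmp1, Arhgap39, Cdk5, Rock2, Ptk2 and Plcg1) were higher in every GPC6 library and 3 (Rhod, Vav2 and Vav3) lower in every one, beside 2.80% and 3.52% of all genes. Crmp1 was at 744, 606 and 494 in 3xCR and 1853, 973, 1082 and 843 in GPC6, whereas the log2 differences of Rock2, Ptk2, Plcg1, Vav2 and Vav3 were smaller, at 0.32, 0.40, 0.32, -0.56 and -0.42. Of the 39 further cues and receptors tested, 0 were without overlap. Their extremes were Islr2, a neuronal adhesion protein (2.31), and Ngfr, the p75 neurotrophin receptor (-1.19), and the highest of the effectors was Ngef, the ephexin that links EphA receptors to RhoA (2.06). The median log2 difference was 0.34 for the cues (27 of 39 higher) and 0.16 for the effectors (37 of 60 higher), and 0.10 and 0.04 with the pan-neuronal covariate.

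Each library is a separate brain, so the limma, edgeR and DESeq2 p-values set the group difference against the variation between tumors. Those tests share part of the variance estimate across genes. The counting rule for overlapping genes is not stated in the sources used here, which touches Efna3, Plxna1 (10.7% of exon length overlapping another gene), Efna4 (10.5%), Sema4c (7.27%) and Epha1 (6.01%).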

How the data were processed

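Bulk RNA-Seq was performed on endpoint tumor tissue of 7 mouse brains, with groups and replicate numbers taken from the sample labels. Reads were aligned to mm10 with STAR 2.5.0a and normalized with DESeq2 1.20.0, per the submitters' processing notes. The authors deposited a normalized signal per gene, that is, counts divided by a size factor for each library, with no correction for gene length. A gene targeted in both groups is not reported here. The labels and the study's methods differ in the extraction kit and the amount of RNA. Of 19282 entries, 25 with names turned into dates (0.254% to 0.361% of reads) were left out. Whole reads were recovered for 100% of values (within 0.01 of a whole number, largest deviation 2.87e-05), on which edgeR 4.0.16 called 0 genes at an adjusted p under 0.05 and DESeq2 1.42.0 called 4.

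The groups were compared with limma 3.58.1 (R 4.3.3) on log2(normalized count + 1), with moderated variance following the mean, over 14782 genes with a mean of at least 10, two-sided, with Benjamini-Hochberg adjustment over all of them. This scale understates the change of low genes. The pan-neuronal covariate was the mean log2 level of its 14 genes. Alternatives were other pseudocounts, filters and scalings, a variance without trend, library weights, voom, a block for the replicate number and leaving out each library. The fits were tested on simulated data. Values per library are given for genes at an unadjusted p under 0.05, genes whose groups do not overlap, and the gene with the highest mean count and both extremes of each family. The genes and all lists were chosen with earlier results of these data known. Exon lengths and coordinates came from GENCODE M21 (68 of 68 genes matched by symbol) and promoter windows from RefSeq (GRCm38.p6).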

Additional observations from a re-analysis of the deposited data

Results flagged for a closer look

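Among the 4 GPC6 libraries of the 67 genes tested, 4 genes had 1 library set apart from the other 3 by Dixon's ratio on the log2 scale at its 95% critical value, where chance alone would give about 3.35 such genes. Plxnd1, the receptor of Sema3e, was at 524 normalized counts in GPC6 replicate 4 against 885 to 971 in the other GPC6 libraries (ratio 0.850). Robo3 was at 1.98 in GPC6 replicate 2 (ratio 0.856) against 21.6 to 30.9. Ntn1 was at 419 in GPC6 replicate 1 (ratio 0.846) against 1741 to 2255, in the library with the highest pan-neuronal and the lowest proliferation sum. Ntn4 was at 103 in GPC6 replicate 4 (ratio 0.837) against 176 to 196. Groups of 3 libraries were not examined in this way.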

How the results depend on the processing

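The number of guidance genes at an adjusted p under 0.05 was 0 in each of the alternatives except library weights (arrayWeights of limma), which gave 17. The number at an unadjusted p under 0.05, 7 in the analysis reported, was 30 with library weights, 15 with DESeq2, 2 with voom, 2 with the pan-neuronal covariate, and between 1 and 15 when each library was left out. The other pathway genes, 8 of 99 as reported, numbered 43 with library weights, 18 with DESeq2 and 5 with equal upper quartiles (5.05%, against 4.84% of all genes). They numbered 4 without the variance trend, 4 with voom, 5 with the covariate and 1 (without 3xCR replicate 4) to 16 (without GPC6 replicate 2) leaving out 1 library. Guidance genes whose groups do not overlap, 2 as reported, numbered 5 with equal library totals (7.46%, against 6.21% of all genes) and 2 to 16 leaving out 1 library. The cause of these shifts was not tested. With library weights, DESeq2, voom and the covariate, the unadjusted counts moved in the same direction as those of the whole table. Other settings did not follow it. With equal upper quartiles the pathway count fell while that of all genes rose. With the replicate block the guidance count fell from 7 to 2 while that of all genes changed little. With equal library totals the guidance genes without overlap rose from 2 to 5, against 6.21% of all genes and 6.32% as reported. Over all 14782 genes tested the unadjusted count of 689 became 5105 with library weights (1962 adjusted) and 293 with the covariate. It was 716 with equal upper quartiles, 650 without the variance trend, 499 with voom and 678 with the replicate block. DESeq2 gave 1853 of 18973 genes (9.77%), and leaving out 1 library gave 121 to 1399 of 14782. Same-numbered libraries deviated together with correlations of -0.19, 0.12 and 0.30 (replicates 2, 3 and 4), and libraries of different numbers with -0.46 to 0.50. So few values cannot decide whether the numbers pair the tumors. The fit with the replicate block gave 2 guidance genes at an unadjusted p under 0.05. GPC6 replicate 1 has no 3xCR library of its number and adds nothing to the group difference in that fit. The median there was 0.22, as without that library. For the 30 guidance genes whose difference exceeded its standard error, 5 of 597 values under the 20 alternatives changed direction. These were the log2 differences of Epha7 (-0.39), Epha10 (-0.10) and Sema4f (-0.17) with the covariate, and of Plxnb1 (-0.15) and Unc5c (-0.059) with library weights. Another 48 crossed to p above 0.05 and 42 to p below it. With 3 against 4 tumors and the shallowest library at 7197692 reads, differences of low genes such as Epha6 and Robo3 rest on few reads.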
